A study of Drosophila melanogaster with 66 samples.

Results

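The comparison described here sets the H4K16ac regions of male embryos beside those of female embryos at nuclear cycle 11, one of the rapid syncytial divisions before the fly embryo forms cells. Its members are all regions of the female list (6015) and of the male list (1201), 7216 of the 124393 regions in the 25 peak lists of the series. The study mapped the DNA-binding protein CLAMP, the dosage compensation protein MSL3 and H4K16ac by chromatin immunoprecipitation and sequencing in 66 samples, of which 10 were H4K16ac. Embryos of 1 sex were obtained by meiotic drive from fathers with SPSD/SD72: those of the females were +/Dp(2:y)CB25-4 with y+ and Rsp[s]B[s], those of the males were 19-3 and yw with Rsp[s]-B[s]/Y, and the mothers in both crosses were yw; attP2{PCNA-EGFP}. All embryos therefore came from mothers with the PCNA-EGFP transgene, by whose nuclear fluorescence fixed embryos were hand-sorted into cycles, and 200 were pooled in a sample, so a list is an average over whole embryos. There was 1 list for each sex and no replicate, so no difference below has a replicate error and none was tested. Intervals on shares are exact 95% Clopper-Pearson intervals and cover counting error only. Read depth was unknown.

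Acetylation of histone H4 at this lysine loosens the packing of nucleosomes. In male flies the MSL complex, made of MSL1, MSL2, MSL3, MLE, the acetyltransferase MOF and the roX RNAs, places the mark over the bodies of genes on the single X, whose transcription is raised to that of the pair of X chromosomes in females. Females lack this complex because Sxl, the switch gene of female development, blocks MSL2, and MOF acts in both sexes at gene starts within another complex. CLAMP binds GA-rich sites and helps the MSL complex find the X.

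Before the regions were compared, the labels were set against chromosome Y, which the label gives to males only. Both lists held 5 regions there, and 3 of each were shared, so the Y did not separate them. The gene nearest to all 5 female regions and to 4 of the 5 male ones was a member of the repeated Su(Ste) family, whose relatives, the Stellate genes, lie on X. The fifth male region (Y 2004473 to 2004759, fold enrichment 4.18) lay nearest Ppr-Y. In the later H4K16ac lists the Y held 1, 0, 0 and 2 regions in females and 4, 3, 3 and 9 in males, in stage order. A result below that speaks of females or males therefore speaks of the lists labelled so. Fold enrichment is the ratio of signal over local background that the authors' peak caller gave each region. It was not scaled between the lists, and the control library was not given in the sources used here.

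On the X and the 4 large autosome arms the female list held 5950 regions over 7.17 Mb and the male list 1194 regions over 0.740 Mb. The excess of the female list was greatest on X. Female regions covered 15.5% of X and 3.23% of the autosome arms, and male regions covered 0.325% and 0.610%. X held 2001 female and 145 male regions, so 33.6% of the female regions (32.4 to 34.8) and 12.1% of the male regions (10.3 to 14.1) lay on X, which makes up 17.8% of the annotated arm length. By base pairs, 50.9% of the female list and 10.3% of the male list lay on X. These shares depended on which female regions entered. With lists of equal length, 10.6% of female and 12.1% of male regions lay on X, and 24.2% and 10.3% of base pairs. With −log10 q limited to 5 or more the base pair shares were 7.51% and 11.8%, and with female regions limited to the range of male folds (3.19, the male 5th percentile, or more, a setting chosen after the data were seen) they were 5.50% and 10.3%. Among the autosome arms the cover ranged from 2.89% on 3L to 3.68% on 2R in females and from 0.553% on 3L to 0.745% on 2R in males, so the female cover of no autosome arm came near that of X. Females carry an additional copy of X, and what that copy or the control library adds to the difference was not tested.

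The female cover of X was spread along the chromosome. X was divided into 24 blocks of 1 Mb, in which the lowest, median and highest female cover were 3.85%, 15.7% and 26.9%, against 0.0242%, 0.271% and 1.16% in males. The female value was the higher one in 24 of the 24 blocks, and the ranges of the sexes did not overlap. In 112 autosomal blocks the lowest, median and highest cover were 0%, 3.37% and 6.56% in females and 0%, 0.559% and 1.83% in males, with the female value higher in 106 and the male value in 2. In 20 of the 24 X blocks female cover was above the highest autosomal block.

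**Figure D1:**
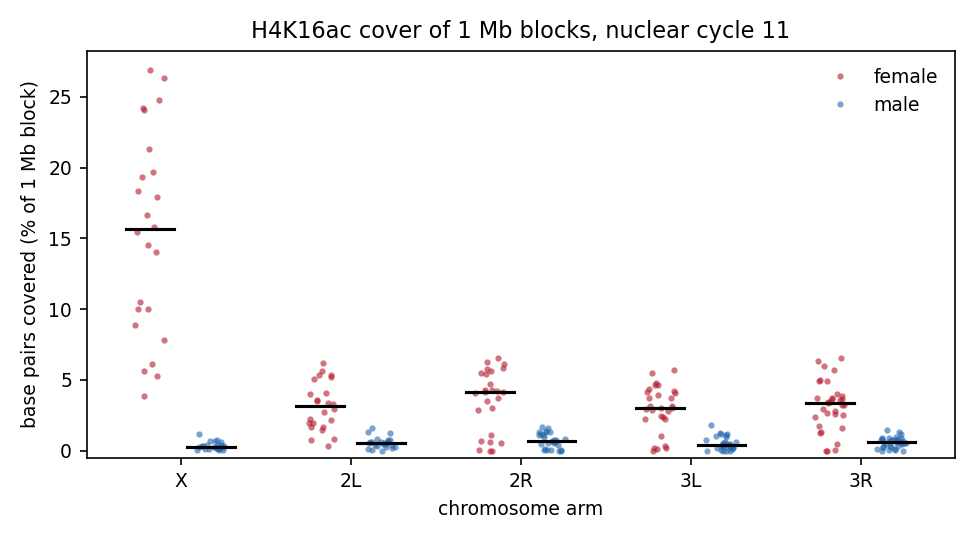
Percentage of base pairs covered by H4K16ac regions in each 1 Mb block (points) of X and the 4 autosome arms in the female and male lists of nuclear cycle 11, with the median of each arm (bars). Female X blocks reach 26.9%, female autosomal blocks 6.56% and male blocks 1.83%.

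Nearly every male region lay where the female list also had one. A female region overlapped 1072 of the 1194 male regions by at least 1 bp (89.8%, 87.9 to 91.4), namely 141 of 145 on X (97.2%, 93.1 to 99.2) and 931 of 1049 on the autosome arms (88.8%, 86.7 to 90.6). On X 123 male regions lay wholly inside a female region, and 95.2% of male X base pairs were inside the female list. In the other direction 129 of 2001 female X regions (6.45%) and 875 of 3949 autosomal ones (22.2%) met a male region, and male regions covered 1.99% and 15.5% of their base pairs. This held for the whole female list: the share of male X regions that met a female region was 40.0% with lists of equal length, 72.7% with both lists limited to −log10 q of 5 or more, and 8.97% with female regions limited to the range of male folds.

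The 4 male X regions that met no female region were short, between 155 and 290 bp. They lay over sdt, an apical polarity gene (X 8215103 to 8215257, fold 3.64), over THADA (X 19862139 to 19862428, 3.46), near upd1, which encodes a JAK/STAT ligand (X 18303484 to 18303664, 3.33), and near a 2S rRNA gene (X 23347440 to 23347636, 3.15). Among the 118 male autosomal regions without a female partner, the highest folds lay near CG13334 (2R 13563177 to 13563492, 4.32) and over CG3036 (4.28) and Svil (4.18). Female regions without a male partner had their highest autosomal folds over the ribosomal protein genes RpL11 (2R 19442370 to 19442916, 4.17) and RpL30 (4.14) and over DCTN4-p62 (4.11), a dynactin subunit gene. On X, up to 22 Mb, the highest lay over CG32537 and CG32536 (X 19276265 to 19276859, 4.05), Roc1a, a cullin ligase subunit gene (3.45), and Es2 (3.43).

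Over the whole lists the female X regions were also the widest. Median widths were 865 bp for female X regions, 626 bp for female autosomal ones, 372 bp for male X regions and 427 bp for male autosomal ones. The order of the female medians depended on the setting. With −log10 q limited to 2 or more they were 1539 bp on X and 761 bp on the autosome arms. With lists of equal length they were 1939 and 934.5 bp. The order turned with −log10 q limited to 5 or more, at 788 bp for 35 X regions and 893 bp on the autosome arms. Male autosomal regions then had a median of 1030 bp. It also turned with female regions limited to the range of male folds, at 659.5 bp for 30 X regions and 784.5 bp. The shortest region in all 4 classes was 147 bp. Regions wider than 5 kb numbered 165 on the female X, where they held 37.9% of the covered base pairs, against 20 on the female autosome arms, 0 on the male X and 1 on the male autosome arms. The 38 regions wider than 10 kb were all female X regions. Female X regions that met a male region were wider, with a median of 4338 bp, than those that did not (813.5 bp), and autosomal ones showed 1192 bp against 532 bp. A wider region has more room for an overlap, so the width and the overlap of a region are not independent.

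**Figure D2:**
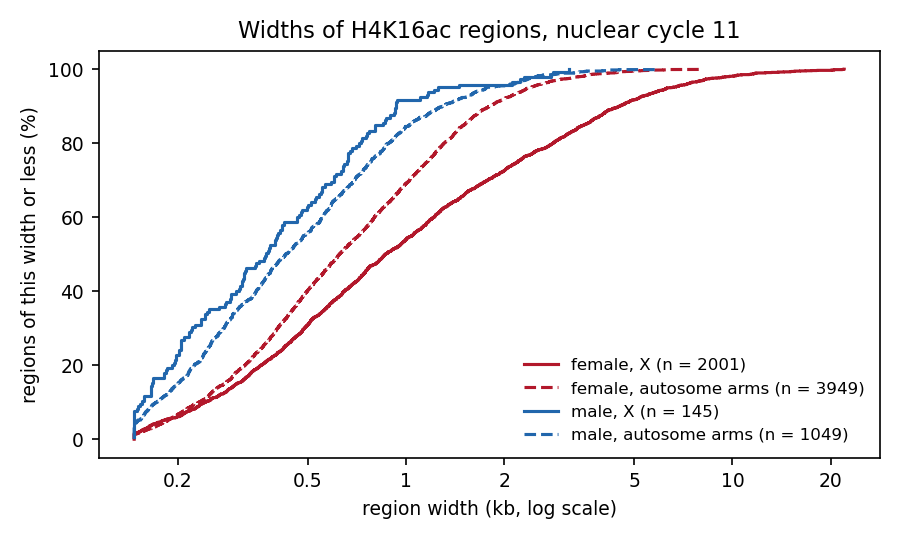
Cumulative percentage of H4K16ac regions by width in kb (log scale) for X (solid) and autosome arms (dashed) in each list of nuclear cycle 11. At the quartiles the female X curve lies to the right of the others, while among the shortest regions it lies close to the female autosomal curve. It reaches 21997 bp, against 8120 bp for female autosomal, 5854 bp for male autosomal and 3161 bp for male X regions.

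Where the lists shared a site, the female region was mostly the wider and the male region mostly the higher one. On X the female partner was wider for 137 of 141 shared male regions, with a median of 4516 bp against 380 bp and a median ratio of 10.2. On the autosome arms it was wider for 810 of 931, with 1269 bp against 444 bp and a ratio of 2.42. The male fold was higher for 132 of the 141 pairs on X and 884 of the 931 on the autosome arms. The male list as a whole began higher: median folds were 3.72 on X and 3.64 on the autosome arms, against 2.45 and 2.60 in females. Regions of like q-value differed as well. At −log10 q from 2 to 2.5 the median fold was 2.47 for 497 female X regions and 3.72 for 32 male ones. A site of a given fold could therefore enter the female list and miss the male list, and the part of this difference in the sex comparison was not tested.

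The widest female X regions ran over several genes each. The first (X 10839122 to 10861118, 21997 bp, fold 2.77) lay over 9 genes, among them sbr, an mRNA export receptor gene, Pgls, of the pentose phosphate pathway, and feo, of the mitotic midzone. Male regions covered 3.50% of it. The second (X 15709655 to 15731355, 21701 bp, 2.55) lay over CG9281, CG15601 and HUWE1, a ubiquitin ligase gene, with 3.05% covered in males. The third (X 11108563 to 11129079, 20517 bp, 2.73) lay over Hsp60A, a mitochondrial chaperonin gene, CG11122, the proteasome gene Rpt3 and the signal recognition particle receptor gene SrpRalpha, with 0.994% covered in males. Each of the 3 contained a male region of small extent.

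The widest autosomal region was the same site in both lists. It lay over chn, a zinc finger gene of neural development, and spanned 8120 bp in females (2R 15128121 to 15136240, fold 3.08) and 5854 bp in males (2R 15128131 to 15133984, fold 4.99). The next widest female regions lay over Tailor and alphaTub84B (3R 7085692 to 7093592, 2.97), the latter an alpha-tubulin gene, and over a block of genes with Smyd4-1, Urod and RpL31 (2R 9584007 to 9591521, 2.98). The widest male X region (X 2790029 to 2793189, 4.95) lay over kirre, a gene of muscle cell adhesion, CG32795 and w, the white eye pigment transporter gene, and 96.7% of it was inside a female region. The second (X 11322710 to 11325522, 4.46) lay over l(1)10Bb and Gapvd1 and wholly inside a female region.

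The X regions of highest fold, the first 3 in females and the first 2 in males, lay beyond 22 Mb, at the end that carries the ribosomal RNA genes. The top region was the same in females (X 23253261 to 23253750, 21.2) and males (X 23253278 to 23253739, 22.2), nearest a 28S rRNA pseudogene. Repeated sequence collects reads from many copies, so these folds are uncertain. Before 22 Mb the highest female X folds were 4.54 over dod, a prolyl isomerase gene (X 21345351 to 21345999), 4.05 over CG32537 and CG32536, and 3.89 over the acetylcholine receptor gene nAChRalpha3. The highest male ones were 6.40 over RhoGAP15B (X 16948826 to 16949483), 5.77 over kirre and w (X 2796138 to 2796737) and 5.56 over cactin (X 20424125 to 20424366), and all 3 met a female region. On the autosome arms the female maxima were 5.59 over the splicing factor gene hfp, 5.41 over Cpsf6 and 4.63 over CG8777 and the planar polarity gene Vang. The male maxima were 7.22 over cnn, a centrosome gene (2R 13447426 to 13447786), 6.73 over the poly(A) polymerase gene hrg and Kpc2 (2R 19668843 to 19672176) and 6.46 over CG42748.

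Counted in regions, the X excess of the female list lay among its weaker regions. When each list was divided into deciles by −log10 q, 7.06% of the strongest decile of the female list lay on X (5.13 to 9.42), and the share was higher in each decile down to the ninth, where it was 48.7%. In the male list the share lay between 7.50% and 16.7% in every decile. When the limit on −log10 q was raised to 5, the order of the sexes was the opposite of that over the whole lists, with 35 of 496 female regions on X (7.06%, 4.96 to 9.68) and 11 of 54 male ones (20.4%, 10.6 to 33.5). All 54 strong male regions met a region of the whole female list. Up to 22 Mb lay 23 of the 35 strong female X regions and 5 of the 11 strong male ones. These counts come from lists of unlike size, and the shares without the X end were not computed. With the 1194 strongest female regions set against the 1194 male ones, 10.6% and 12.1% lay on X. Of 430 female regions that reached the fold at the 5th percentile of the male list, 3.19, 6.98% lay on X, an alternative chosen after the data were seen. Counted in regions, the higher share of X in females was thus a property of the whole female list and not of its strongest regions. By base pairs the female share was still the higher one with lists of equal length, 24.2% against 10.3%. At −log10 q of 5 or more it was the lower one, 7.51% against 11.8%.

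**Figure D3:**
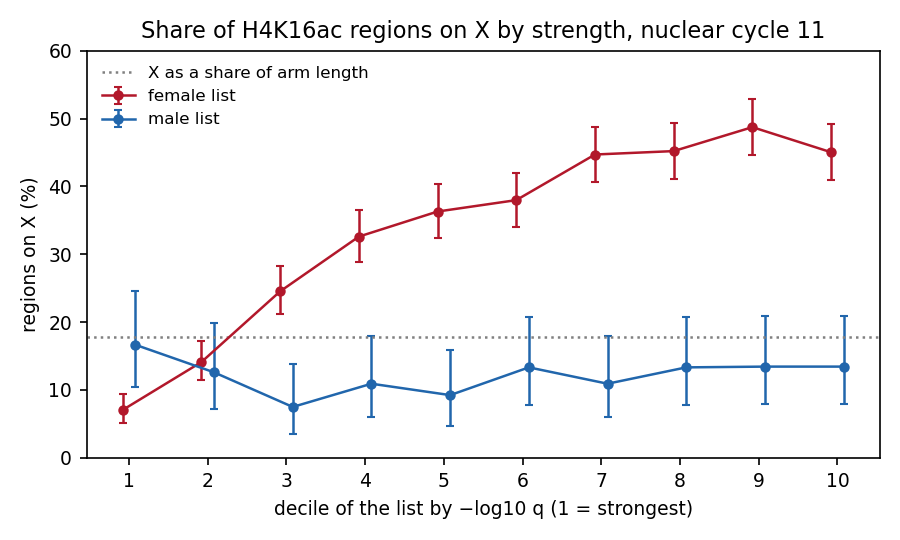
Percentage of regions on X in each decile of the female and male lists, ordered by −log10 q from the strongest, with exact 95% intervals for counting error, and X as a share of annotated arm length (dotted). The female share starts at 7.06% and reaches 48.7%, and the male share stays between 7.50% and 16.7%.

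The shared sites were the stronger ones. In the female list 55.1% of the strongest decile met a male region, against 1.51% of the weakest. In the male list 100% of the strongest decile met a female region, against 73.9% of the weakest. On X, 22 of the 42 female regions in the strongest decile were shared, and 1 of 268 in the weakest.

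Gene bodies held most of the covered base pairs in both sexes. In females 94.3% of X regions and 96.2% of autosomal regions touched a protein-coding gene, and 93.7% and 87.6% of the covered base pairs lay in such genes, whose bodies make up 70.7% of X and 66.5% of the autosome arms. In males 91.0% and 93.0% of regions touched a gene, and 75.5% and 83.7% of base pairs lay in genes. Male regions on X thus had the lowest share inside genes. Of the 145 male X regions 10 lay beyond 22 Mb, among them a region of 2778 bp over no protein-coding gene. The male X total was 76.4 kb, and the share inside genes before 22 Mb was not computed. The 38 female X regions wider than 10 kb touched a median of 4 genes and at most 10, and 30 of them contained a whole gene. The gene table gives no strand and no exons, so starts, ends, exons and introns could not be told apart.

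A gene was counted as covered in females only when female regions covered at least 50% of its body and male regions under 10%, and the reverse for males only. Of 13842 protein-coding genes, 10.7% were covered in females only and 0.0289% in males only. By chromosome this was 40.8% of the 2197 X genes (896) and 5.03% of the 11645 autosomal genes (586), against 0 and 4 genes in males only. The 0 among X genes allows a share of up to 0.168%. In both sexes 3 X genes and 61 autosomal genes were covered to at least 50%, 0.462% of all genes. Female regions covered the whole body of 261 X genes (11.9%) and 206 autosomal genes (1.77%). Any male region touched 144 X genes (6.55%), and all 144 were also touched in females, as were 1096 of the 1142 autosomal genes touched in males.

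**Figure D4:**
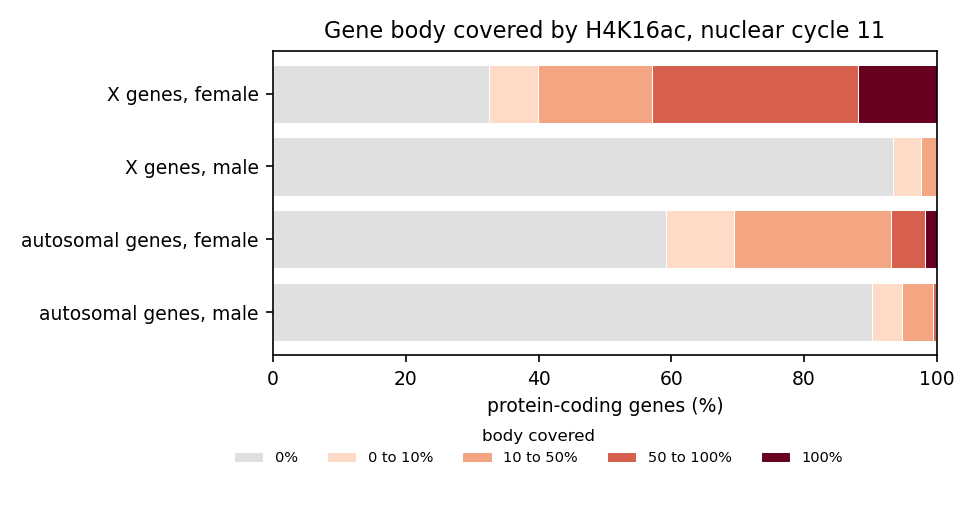
Protein-coding genes of X (2197) and the autosome arms (11645) by the percentage of the gene body covered by H4K16ac regions in each list of nuclear cycle 11 (stacked bars, percent of genes). Full cover applies to 11.9% of X genes in females, and 93.4% of X genes have no male region.

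Nearly all autosomal genes covered in females only were short, while on X they ranged to over 20 kb. Among genes up to 1 kb, 25.6% on X and 11.4% on the autosome arms were covered in females only. Among genes of 2 to 5 kb it was 54.1% and 1.48%, and among genes of 5 to 10 kb it was 119 of 269 X genes (44.2%) and 2 of 1212 autosomal genes (0.165%). Of genes longer than 10 kb the call was met on X alone, for 45 of 180 genes of 10 to 20 kb and 8 of 129 of 20 to 50 kb. A short gene can be covered by a single short region, which is why length is given here. With lists of equal length 122 X genes (5.55%) and 194 autosomal genes (1.67%) were covered in females only, so the share on X was still the higher one but far smaller. With −log10 q limited to 5 or more the order turned, with shares of 0.410% and 1.07%.

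Among X genes covered in females only, those under the highest female folds were CG32537 (X 19273349 to 19276539, cover 61.3%, fold 4.05) and CG32536 (56.7%), which share a region. They were followed by Roc1a (X 647304 to 648597, 72.4%, 3.45), Pa1, whose mammalian counterpart is a partner of histone H3 methyltransferases (69.2%, 3.36), and Spg7, a mitochondrial protease gene (76.0%). CG14414 (52.5%, 3.28), CG7332 (83.3%, 3.26) and CG16952 (73.3%, 3.22) came next. In males the cover of these 8 genes was 0%. The 4 longest genes called on X were CG42699 (X 5764553 to 5789576, 52.7%), fs(1)h, a BET bromodomain gene (X 8037808 to 8061436, 54.1%), CG14200 (60.1%) and nej, which encodes the acetyltransferase CBP (X 9665442 to 9687066, 69.3%). In males CG14200 was covered to 0.943% and the other 3 to 0%.

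The autosomal genes covered in females only under the highest folds were short, namely the proteasome gene Rpn7 (3R 22460662 to 22462054, cover 57.8%, fold 3.92), CG11560 (61.8%, 3.88), dbe, of ribosomal RNA processing (100%, 3.83), Trs31, of vesicle transport (98.2%, 3.73), ND-B15, of respiratory complex I (100%, 3.73), and EMRE, of the mitochondrial calcium channel (70.0%, 3.65). Trs31 and ND-B15 are neighbours under 1 region. Male cover of these 6 was 0%.

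The 4 genes covered in males only were all autosomal and under 0.9 kb. They were CG13216 (2R 11238108 to 11238995, cover 91.4%, fold 3.75), Acp26Ab, a seminal fluid protein gene (2L 5892298 to 5892862, 68.3%, 3.49), CG15876 (3L 4694205 to 4694845, 64.7%, 3.44) and SNCF (3L 13378583 to 13379190, 51.0%, 3.31). Female cover was 0% for each. In the H4K16ac lists of cycles 12 and 13 all 4 stood at 0% in both sexes. Later, SNCF was covered to 70.6% in females and 57.7% in males at cycle 14. At 2-4 h SNCF and CG13216 were covered to 100% in both sexes and Acp26Ab to 26.7% and 65.7%, while CG15876 stayed at 0%.

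Genes covered in both sexes were named by their male folds, so the order of their folds is no result. Kpc2 (2R 19670618 to 19673477) was covered to 77.9% in females and 54.5% in males, at folds of 4.57 and 6.73. CG13713 (3L 4697601 to 4698058) was covered to 100% in both, at 4.00 and 6.16. CG17249 and CG13919, which overlap, were also covered to 100% in both, at 3.36 and 5.34. The 3 X genes of this kind were l(1)10Bb, a splicing gene (X 11324294 to 11325308, 100% and 100%), CG44532 (X 9162092 to 9163153, 100% and 78.8%) and tsg, twisted gastrulation, a modulator of BMP signalling (X 11988062 to 11988948, 100% and 76.7%).

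The dosage compensation genes were touched in all cases in females and in part in males. Female regions touched 8 of the 8 MSL complex, roX and Clamp genes and male regions 5, where 38.2% and 7.81% of genes of every type were touched. Covered in females only were 2, both on X, against 9.70% of genes of every type, 36.9% of those on X and 4.76% of those on the autosome arms. The gene of the acetyltransferase, mof (X 5873840 to 5876853), was covered to 80.0% in females and 5.08% in males. The noncoding RNA gene roX1 (X 3857230 to 3862697) was covered to 77.7% and 4.35%, and roX2 (X 11579065 to 11580432) to 12.6% and 0%. The gene of the male-limiting subunit, msl-2 (2L 3462218 to 3466112), was covered to 37.2% in females and 27.7% in males, at folds of 4.50 and 4.90. For the chromodomain gene msl-3 the values were 32.2% and 0%, for the zinc finger gene Clamp 29.4% and 9.81%, for the helicase gene mle 15.5% and 0%, and for the scaffold gene msl-1 10.4% and 3.70%.

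The genes that count X chromosomes are transcribed before cycle 14 and set Sxl. Among them sisA, which encodes a bZIP factor (X 11321579 to 11322357), was covered to 100% in females at a fold of 3.16 and to 0% in males. The nearby l(1)10Bb, covered in both sexes, had the same female fold, so a single female region appears to lie over both genes. The male region there (X 11322710 to 11325522) begins beyond the end of sisA, so sisA need not be a site of its own. The bHLH gene sc was covered to 18.6% and 0%, and run, a Runt factor gene, to 13.4% and 3.32%. The ligand gene upd1 was covered to 4.24% and 4.22%, and Sxl itself (X 7074550 to 7098053) to 10.2% and 0%. All 5 were touched in females and 2 in males, and sisA alone met the call for females only, beside 67.5%, 6.55% and 40.8% of all X genes. Of 16 further sex determination genes 14 were touched in females and 2 in males, where 45.1% and 9.29% of all protein-coding genes were. Covered in females only were 3, beside 10.7% of all: ix (96.4%), snf, a splicing factor gene on X (83.7%), and emc (52.4%).

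Most genes that pattern the early embryo had no region in either sex, as had most genes: over all protein-coding genes 45.1% were touched in females and 9.29% in males. No region touched any of the 8 Hox genes. Of 10 gap and terminal genes 2 were touched in females and 1 in males. The gap gene gt (X 2427113 to 2428967) was covered to 72.3% in females and 0% in males. Of 9 pair-rule genes 3 were touched in each sex, and none was covered in females only. The pair-rule gene eve (2R 9979319 to 9980795) was covered to 48.3% in females and 45.0% in males, and ftz to 33.5% and 0%. Of 15 dorsoventral genes 6 and 4 were touched, with tsg covered in both sexes.

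Among 22 genes of the first wave of zygotic transcription, 9 were touched in females and 6 in males, and 3 were covered in females only, namely sisA, gt and CG16815 (61.6%). The female counts lay near the background of 45.1% and 10.7%. The 6 of 22 touched in males lay above the 9.29% of all protein-coding genes, in a small list. Sry-alpha, a gene of cellularisation (3R 30039719 to 30043071), was covered to 100% in females and 54.3% in males. Its annotated span overlaps a neighbouring gene, so its cover is shared. The segment polarity genes had 7 of 11 members touched in females and 4 in males, where 45.1% and 9.29% of all protein-coding genes were. The 2 covered in females only were fu, a Hedgehog pathway kinase gene (81.8% and 0%), and dsh, a Wnt pathway gene (79.3% and 7.63%). The Wnt effector gene arm was covered to 92.7% and 10.1%, just outside the limit for males. All 3 lie on X.

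Most genes of protein synthesis and breakdown were touched in females, where 45.1% of all protein-coding genes were, against 9.29% in males. Of 91 cytoplasmic ribosomal protein genes, 80 were touched in females and 21 in males, and 31 (34.1%) were covered in females only, 12 of 14 on X and 19 of 77 on the autosome arms. Of 73 mitochondrial ribosomal protein genes it was 71, 14 and 30 (41.1%), with 9 of 11 on X and 21 of 62 on the autosome arms. Of 48 proteasome genes it was 33, 8 and 13 (27.1%), with 2 of 6 and 11 of 42. These shares stood beside 40.8% of all X genes and 5.03% of all autosomal ones. The median lengths of the autosomal members, 1284, 909.5 and 1381.5 bp, were below the 2080 bp of all autosomal genes. Short autosomal genes met the call more often. Among autosomal genes up to 1 kb 11.4% met it, and among those of 1 to 2 kb 8.18%. The autosomal shares of these lists, in the same order, were higher, at 24.7%, 33.9% and 26.2%. What length adds to these shares was not tested. RpL22 (X 762560 to 765130) was covered to 100% in females and 7.62% in males, and the autosomal RpL34b to 100% in both sexes. Rpt4, a proteasome ATPase gene on X, was covered to 100% and 10.8%.

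Of 20 chromatin and Polycomb genes, 17 were touched in females and 7 in males, and 4 were covered in females only, among them Set2, the H3K36 methyltransferase gene on X (X 13413242 to 13421024, 97.9% and 0%), and the acetyltransferase gene mof. Of 18 cell cycle genes it was 14, 9 and 2, and PCNA, the replication clamp gene, was covered to 100% in females and 98.1% in males. All embryos carry a PCNA-EGFP transgene from their mothers, and reads of its PCNA part cannot be told from those of the gene. Of 10 histone variant and histone locus body genes it was 9, 5 and 4. Over all protein-coding genes 45.1% were touched in females, 9.29% in males and 10.7% covered in females only. His3.3B (X 9152523 to 9156669) was covered to 98.2% and 3.64%, and the autosomal His3.3A, which encodes the same histone, to 100% and 60.7%. The stem-loop binding protein gene Slbp was covered to 100% and 55.7%.

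The GA-binding and pioneer factor genes were touched in 6 of 6 cases in females and 4 in males, with none covered in females only, beside 45.1%, 9.29% and 10.7% of all protein-coding genes. Zelda, zld (X 19766465 to 19783548), the main activator of the early zygotic genome, was covered to 14.2% in females and 0% in males, and Trl, the GAGA factor gene, to 20.7% and 0%. Of 17 X genes long used to study dosage compensation 15 were touched in females and 3 in males, and 5 were covered in females only, among them Polr2A, of the large RNA polymerase II subunit (X 11562800 to 11570326, 97.9% and 0%), and SkpA (76.3% and 0%). These 5 of 17 compare with 40.8% of all X genes.

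Cuticle and chemoreceptor genes were seldom touched. Female regions touched 3 of 70 cuticle genes, 9 of 119 odorant and gustatory receptor genes, 2 of 6 neuron genes, 2 of 7 muscle genes and 2 of 7 pole cell genes, where 45.1% of protein-coding genes were touched in females and 9.29% in males. Male regions touched 0, 3, 1, 1 and 1. The neuron, muscle and pole cell lists are too small to be told from the shares of all genes. All 4 receptor genes covered in females only were X-linked, among them Or7a (92.6% and 0%) and Gr5a (65.7% and 0%). The neuronal gene elav on X was covered to 46.7% in females and 0% in males. Small RNA genes were rarely touched too, with 22 of 258 microRNA genes in females and 3 in males, and 4 and 1 of 295 transfer RNA genes. Of genes of every type 38.2% and 7.81% were touched. These small RNA genes are short, with autosomal median lengths of 92 and 73 bp, and a short gene has less room to meet a region.

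The female X regions of cycle 11 were set against the other lists of the series, which share both crosses but come from other pools of embryos. Female-only X regions were covered most by the male list of cycle 14. Of their base pairs the female and male H4K16ac lists covered 21.9% and 12.6% at cycle 12, 32.8% and 29.3% in the next cycle, 53.9% and 78.7% by cycle 14, and 26.9% and 39.6% in embryos of 2-4 h. The rest of X was covered to 5.42% by the female and 9.30% by the male list of cycle 14. Male MSL3 in stage order covered 0.0348%, 0.241%, 42.5% and 50.1% of the female-only X base pairs at cycles 11 to 14 and 5.50% at 2-4 h. The rest of X was covered to 0.0632%, 0.0699%, 6.05% and 4.99% at cycles 11 to 14 and 0.513% at 2-4 h. The MSL3 lists of cycles 11 and 12 were nearly empty, with 0.0597% and 0.0911% of X covered. Their low values therefore do not show that MSL3 was absent. The MSL3 list of 2-4 h covered 1.13% of X. Autosomal female-only regions were covered to 67.8% and 63.6% by the female and male lists of cycle 12 already. The rest of the autosome arms was covered to 2.79% and 2.67% by these lists. Male MSL3 covered the autosomal female-only regions to 30.3% at cycle 13, 1.18% at cycle 14 and 0.298% at 2-4 h. It covered the rest of the autosome arms to 12.2%, 0.907% and 0.0669%. The MSL3 list of cycle 13 met 1577 of the 3074 autosomal ones (51.3%) and 915 of the 1872 on X (48.9%), while that of cycle 14 met 2.83% and 39.3%.

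**Figure D5:**
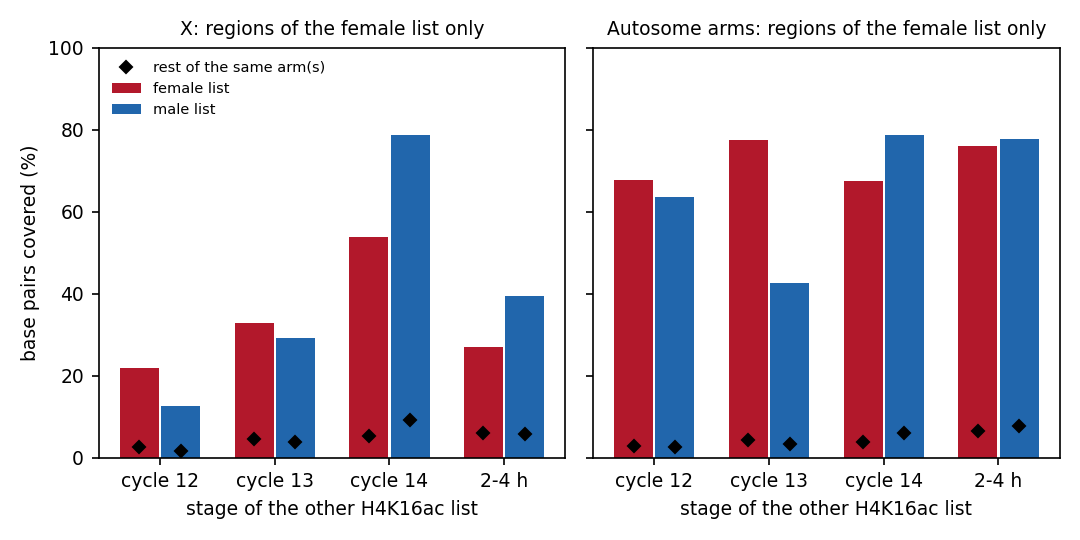
Percentage of base pairs of the female-only regions of cycle 11, on X (left) and the autosome arms (right), that lie in the H4K16ac lists of later stages (bars, female and male), with the cover of the rest of the same arms by the same list (diamonds). On X the highest bar is the male list of cycle 14 at 78.7%, and on the autosome arms the bars range from 42.6% to 78.8%.

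Width went with this overlap. The 165 female X regions wider than 5 kb were all overlapped by the male H4K16ac list of cycle 14, which covered 91.4% of their base pairs, and 155 of them (93.9%) by male MSL3 of cycle 14. Of the 1080 female X regions under 1 kb, male MSL3 of cycle 14 overlapped 198 (18.3%), and the male H4K16ac list covered 45.5% of their base pairs. As a share of the base pairs in either list, female cycle 11 on X was most like male cycle 14 (59.6%), then female cycle 14 (47.5%), and least like male cycle 11 (1.99%). On the autosome arms it was most like the cycle 12 lists of males (47.8%) and females (47.3%). Lists of more similar size can share more base pairs, so these values describe the lists and carry no test.

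The order of the sexes on X was not the same at later stages. Female minus male cover of X was 15.2 percentage points at cycle 11. In the later stages, in order, it was 2.18, 0.886, −6.48 and −1.45 percentage points. On the autosome arms it was 2.62 at cycle 11 and then 0.203, 1.66, −2.45 and −1.17. The 896 X genes covered in females only at cycle 11 had a mean cover of 32.7% in females and 20.5% in males at cycle 12, and of 64.8% and 87.7% at cycle 14. Male cycle 14 covered 830 of them (92.6%) to at least 50%, and female cycle 14 covered 606 (67.6%). At 2-4 h these counts were 352 and 193. The other X genes had a mean cover of 19.3% in males and 12.2% in females at cycle 14. Set2 was covered to under 10% in both sexes at cycle 12, to 11.2% in females and 55.5% in males at cycle 13, to 98.7% and 99.0% at cycle 14, and to 30.8% and 55.4% at 2-4 h.

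CLAMP at the same cycle met the shared sites more often than the female-only ones. The female CLAMP list of cycle 11 overlapped 79 of the 129 shared female X regions (61.2%) and 348 of the 1872 female-only ones (18.6%). On the autosome arms it overlapped 428 of 875 shared regions (48.9%) and 24.8% of the 3074 female-only ones. The male CLAMP list of cycle 11 overlapped 1 of 145 male X regions and 23 of 1049 male autosomal ones. That list was nearly empty, with 0.0226% of X and 0.0417% of the autosome arms covered, against 2.54% and 1.53% for the female CLAMP list. The few overlaps therefore do not show that CLAMP was absent from the male regions. Shared regions were wider, which gives more room for an overlap.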

How the data were processed

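Peak lists of H4K16ac in whole sexed embryos were analysed, 1 list for each sex at cycle 11, with the other lists of the series for reference. Per the submitters' processing notes, the build was dm6 and the tools were MACS2 2.1.1, SAMtools 1.9, Bowtie2 and Picard. Their settings, the control library and the read depth are not given in the sources used here. For each region the authors deposited a fold enrichment (a ratio over local background) and its −log10 p and −log10 q, the lowest −log10 q being 1.30. No value was scaled between lists.

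Regions were compared with Python 3.11.15, numpy 2.4.6, pandas 2.3.3 and scipy 1.17.1, in scripts tested on simulated data. Gene positions are those of RefSeq for dm6, and an arm was taken to end at its last annotated gene. Shared means an overlap of at least 1 bp. No test was made, since each sex has 1 list. The 24 gene lists, the members and the rules were chosen with earlier results of these data known. Genes named are the MSL, roX, Clamp, Sxl and X-signal genes always, up to 8 X-linked and 6 autosomal genes covered in females only under the highest folds, the 4 longest on X, those covered in males only and in both sexes under the highest male folds, and up to 4 examples a list. The X genes covered in both sexes, the regions before 22 Mb and the genes absent from later lists were chosen after their values were seen. Chromosomes 4, Y and M were left out of the shares.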

Additional observations from a re-analysis of the deposited data

Results flagged for a closer look

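Regions outside X and the large autosome arms, which enter no comparison above, were found in both lists. The female list held 56 regions on chromosome 4, a small and mostly heterochromatic chromosome, with a median fold of 2.42 and a highest of 3.75, and the male list held 0. Female regions touched 43 of the 80 protein-coding genes there and male regions 0, although the male list of cycle 12 covered 6.21% of these gene bodies on average. On X and the autosome arms 45.1% of protein-coding genes were touched in females and 9.29% in males. The female list held 5 regions on chromosome Y and the male list 5. The female list also held 4 regions on the mitochondrial genome, which has no histones, with folds up to 2.52, and the male list 2.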

How the results depend on the processing

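No paired analysis was possible because there is 1 list for each sex and no replicate. The male minus female share of regions on X, −21.5 percentage points, reversed to 13.3 at −log10 q of at least 5, to 1.59 with lists of equal length, and to 5.17 with female regions at or above the male 5th percentile of fold, a setting added after seeing the data. In these 3 settings the female share on X was 7.06%, 10.6% and 6.98%, the female share shared 7.06%, 43.8% and 56.3%, the male share shared 64.8%, 47.9% and 21.3%, the X genes covered in females only 9, 122 and 4, the autosomal ones 125, 194 and 34, and the genes covered in males only 1, 29 and 45. Fewer female regions enter each of them. The male share on X was 20.4% at −log10 q of at least 5, from 11 X regions of which 5 lay before 22 Mb. At −log10 q of at least 2 the female share on X was 28.3%, and with regions under 1 kb apart merged it was 27.3%, with 19.9% of female regions shared. Where at least 50% of a region had to be covered, 82.8% of male and 6.27% of female regions were shared. With a cover of at least 25%, 1543 autosomal genes were covered in females only and 15 genes in males only. With at least 75% the counts were 590 on X, 274 on the autosome arms and 1, and among genes of at least 2 kb they were 533, 50 and 0. The other 24 values of these results moved by less, with the same direction. Depth is unknown and there is no replicate, so a site missing from the male list is not shown to lack the mark.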

Other observations

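Few genes were covered at cycle 11 and in no later list, a question put after the values were seen. Of 944 X genes covered to at least 50% in females, 8 (0.847%) had no cover in any of the 8 later H4K16ac lists of either sex, and of 809 autosomal genes 3 (0.371%). The X genes were sisA, gt, CG3603 (X 2948034 to 2949120, female cover 66.2%), CG4666 (88.3%), CG12123 (68.1%), CG45060 (66.3%), Gip (87.8%) and CG8958 (57.8%), with male cover of 0% at cycle 11 for each. Both sisA and gt are known as genes transcribed early. The female region over sisA appears to extend over l(1)10Bb, which was covered in both sexes and in the later lists. The autosomal genes were CG45428 (56.6%), CG34305 (66.3%) and CREG (70.5%), and CG15876 was the only such gene of the 71 autosomal ones covered to at least 50% in males.

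The same was asked of regions of any width, without a limit on cover. A shorter span has less room to meet a later list, so the shares of regions and genes are not comparable. Of the 1872 female-only X regions, 410 (21.9%, 20.1 to 23.9) met no later H4K16ac list, against 6 of the 129 shared X regions (4.65%), 258 of the 3074 female-only autosomal regions (8.39%), 8 of 145 male X regions (5.52%) and 65 of 1049 male autosomal regions (6.20%). The 410 were shorter than the rest of the female-only X regions, with median widths of 391.5 and 1104 bp, and lower, with median folds of 2.32 and 2.47. Of the 165 female X regions wider than 5 kb, 0 were absent from the later lists.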
